A study of Mus musculus with 12 samples.

Results

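Lysosomes break down glycans, sulfated sugars, lipids and proteins with soluble acid hydrolases. Most of these enzymes receive a mannose 6-phosphate tag in the Golgi, which carries them to the lysosome, and several need a small lipid-binding cofactor or an activating enzyme. Neurons depend on this set, since for many of its members inherited loss of the single gene causes a storage disease that often affects the brain. A list of 41 mouse genes for lysosomal glycosidases, sulfatases, lipases and their cofactors was examined here, and all 41 were found by symbol among the 25239 genes of the expression table. m6A, the methylation of adenosine in mRNA, was measured on the same transcripts, and 16 of the 2643 m6A peaks carry the name of 1 of 11 members.

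The series holds 12 libraries of HT22 cells, a line of mouse hippocampal neurons labelled wild type, in 4 groups of 3 libraries. Cells were left untreated (control) or received 800 μM mesaconitine (MA), a diester alkaloid of Aconitum, for 72 h, and their fragmented poly(A) RNA was sequenced as input and after immunoprecipitation with an anti-m6A antibody (IP). MA was dissolved in DMSO, and whether the control received DMSO or the 3 libraries of a group came from separate cultures is not given in the sources used here. The values used are pooled by the authors: 1 base mean per gene, which is the average normalised read count over the libraries the authors compared, and 1 read count per peak and group. No value of a single library was analysed, so no spread between replicates and no test can be given. Expression of the members over the whole gene was not compared between MA and control. Input reads of single peaks are compared further on, but they cover only part of a transcript and are scaled by the summed peak reads. Over all peaks the summed reads were 288659 in control input, 267002 in control IP, 214778 in MA input and 359889 in MA IP.

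The base means did not show the marker pattern of mature neurons. Of 10 neuronal markers, 2 had a base mean of at least 10 (Eno2 at 534 and Tubb3 at 473) and 5 were listed at 0. Of all 25239 listed genes, 49.3% had a base mean of at least 10 and 9061 genes were listed at 0. All 4 fibroblast markers were above 10, with Col3a1 at 134804, Col1a1 at 100160 and Pdgfra at 8906. Dcn, at 145, was lower than Eno2 and Tubb3. Of the microglial markers 2 of 6 reached a base mean of 10, as did 1 of 4 astrocyte and 1 of 4 oligodendrocyte markers.

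Nearly all of the enzymes and cofactors were expressed in these cells. A base mean of at least 10 was found for 40 of the 41 members, against 49.3% of the 25239 listed genes, and the median over the 41 was 1374. To set genes side by side, the base mean was divided by the length of the longest coding transcript, which gives a level per kb. The median level of the members was 562 base mean per kb, against 386 for the 11535 coding genes with a base mean of at least 10, and 25 of the 41 lay above that value. With all exons of a gene merged as the length, the medians were 342 and 264 per kb and 28 of the 41 lay above, while Galc moved from 422 to 109 per kb. The range was wide, from 10255 per kb for Psap to 2.88 per kb for Manba, with Acp5 listed at 0. Psap and Scpep1 together made up 35.6% of the summed base mean of the 41 members.

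**Figure D1:**
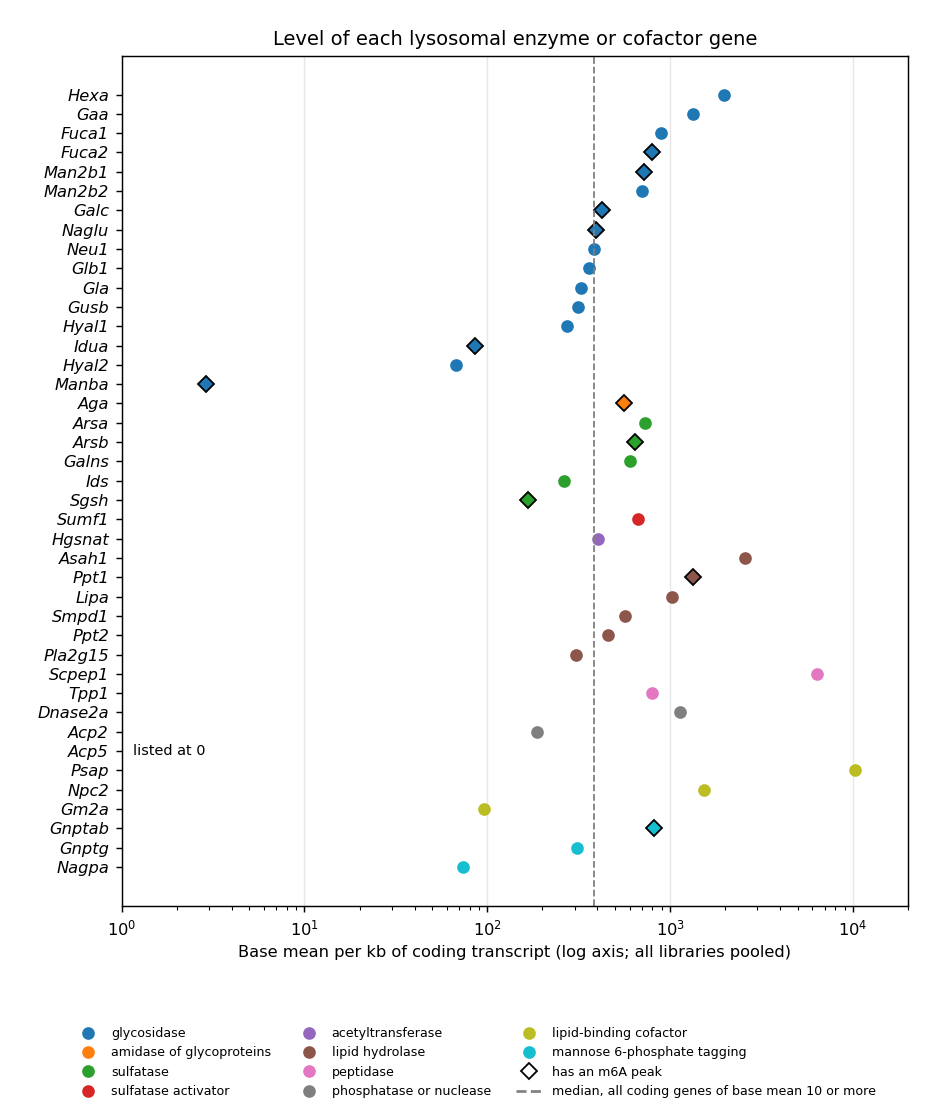
Level of each of the 41 genes as base mean per kb of coding transcript on a log axis, pooled by the authors over the libraries they compared and grouped by role, with diamonds for genes with an m6A peak. The dashed line is the median of 386 for the coding genes with a base mean of at least 10; 25 members lie to its right and Acp5 is listed at 0.

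Among the 16 glycosidases, which remove sugars from glycans and glycolipids, the median level was 389 base mean per kb. Hexa, the alpha subunit of beta-hexosaminidase, had the highest level, 1974 per kb. Gaa, which degrades glycogen, followed with 1339 per kb. Fuca1, Fuca2, Man2b1 and Man2b2, for fucosidases and alpha-mannosidases, lay between 705 and 890 per kb. Galc, Naglu, Neu1, Glb1, Gla, Gusb and Hyal1 formed a middle group from 274 to 422 per kb. The levels of the other glycosidases were much lower. Idua, needed for dermatan and heparan sulfate breakdown, stood at 85.6 per kb, and Hyal2, a hyaluronidase, at 67.4 per kb. Manba, the beta-mannosidase, had a base mean of only 10.6 and lay at percentile 0.772 of the coding genes.

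The 5 sulfatases ranged from 166 base mean per kb for Sgsh to 728 for Arsa, which removes sulfate from sulfatide. Arsb and Galns, which act on glycosaminoglycan sulfates, lay close to Arsa with 641 and 603 per kb, and Ids stood at 262 per kb. Sumf1, whose product activates all sulfatases in the endoplasmic reticulum, had a level of 670 per kb. Hgsnat, the membrane acetyltransferase of heparan sulfate breakdown, had 405 per kb, and Aga, which cuts the link between sugar and asparagine, 562 per kb.

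All 6 genes that act on lipids or fatty acyl groups were expressed. Asah1, acid ceramidase, reached 2560 base mean per kb. Ppt1, which takes palmitate off proteins, and Lipa, acid lipase, had 1332 and 1019 per kb. Smpd1, acid sphingomyelinase, had 570 per kb, Ppt2 456 per kb, and the phospholipase Pla2g15 the lowest level of the 6, 305 per kb. The serine carboxypeptidase gene Scpep1 had the second highest level of all members, 6363 per kb, while the tripeptidyl peptidase gene Tpp1 had 794 per kb. The level of Dnase2a, the acid nuclease, was 1138 per kb and that of the phosphatase gene Acp2 was 187 per kb.

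The lipid-binding cofactors differed widely in level. Psap, the precursor of the saposins that present sphingolipids to their hydrolases, had the highest level of all members and lay at percentile 98.4 of the coding genes. Npc2, which carries cholesterol out of the lysosome, had 1528 base mean per kb. Gm2a, the cofactor through which hexosaminidase A degrades ganglioside, had 96.2 per kb. The genes of the mannose 6-phosphate tag also differed. Gnptab, for the catalytic subunits of the phosphotransferase, stood at 812 per kb, Gnptg, for its gamma subunit, at 310 per kb, and Nagpa, for the uncovering enzyme, at 74.0 per kb. These are single pooled values, so neighbours in this order cannot be told apart by a spread.

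A peak of their own was listed for 11 of the 41 members. Over all listed genes the share was 8.39%, and over those with a base mean of at least 10 it was 15.6%. The members with peaks were the glycosidases Galc with 3 peaks, Man2b1 and Idua with 2 each, and Naglu, Fuca2 and Manba with 1 each. The others were the sulfatases Sgsh with 2 peaks and Arsb with 1, together with Aga, Ppt1 and Gnptab with 1 each. No peak was listed for any of the 3 lipid-binding cofactors, although Psap and Npc2 were among the most highly expressed members, nor for Scpep1 or Asah1. The paper counts more m6A peaks, on more genes, than the list used here holds. A gene without an entry may thus have a peak that is not in this list, or m6A below the calling threshold of the authors.

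The peaks were placed on GENCODE M21 transcripts of GRCm38, the assembly also called mm10, by their midpoints. Of the 16 peaks 8 lay in the coding sequence, 7 in the 3′UTR and 1 in the 5′UTR. Over the 2452 peaks of the table that could be placed, the shares were 57.7%, 33.3% and 8.97%. The 5′UTR peak belongs to Fuca2 (chr10:13501028-13501177) and runs from base 28 to base 177 of its transcript, across the start codon. Both peaks of Idua and both of Sgsh lay in the 3′UTR, and both of Man2b1 in the coding sequence. Galc had 2 peaks in the coding sequence and 1 in the 3′UTR, whose midpoint lay 791 bases after the stop codon. The 3′UTR peaks of Idua lie at the very end of the transcript, at 96.9% and 99.2% of its length.

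**Figure D2:**
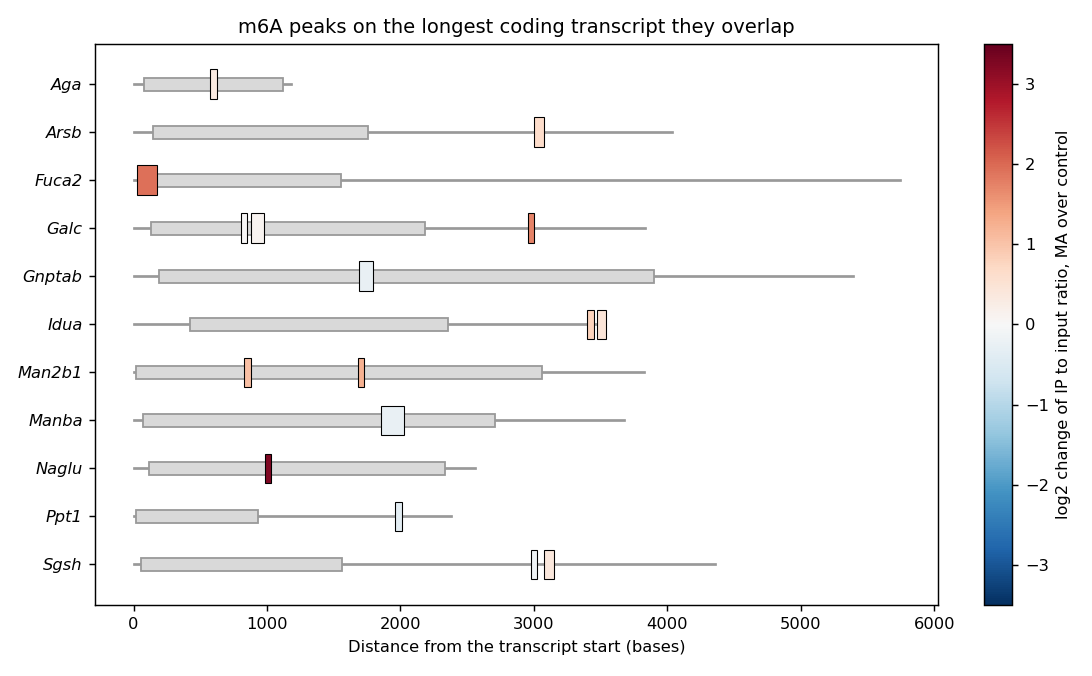
The 16 peaks on the longest coding transcript of each gene that they overlap, as distance from the transcript start in bases, with the coding sequence as a grey box and untranslated parts as a line. The colour gives the log2 change of the IP to input ratio from control to MA, which is strongest for Naglu and near 0 for the coding peaks of Galc, while the 3′UTR peak of Galc is at 1.74.

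The sequences of 5 coding peaks are shown because they hold the highest and some of the smallest changes among the coding peaks, described further on. The letters are those of the transcribed strand in the GENCODE M21 transcripts, and capitals mark RRACH, the consensus around m6A sites, which is A or G at the first and second base, then A, then C, then any base but G. The Naglu peak lies in exon 5 of 6 (chr11:101073958-101074007, plus strand). The Man2b1 peaks lie in exons 6 and 14 of 24 (chr8:85087223-85087272 and chr8:85092852-85092901, plus strand). The first Galc peak lies in exon 7 of 17 (chr12:98242673-98242722, minus strand) and the Gnptab peak in exon 12 of 21 (chr10:88432532-88432631, plus strand).
Naglu: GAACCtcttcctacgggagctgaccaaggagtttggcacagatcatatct
Man2b1 peak 1: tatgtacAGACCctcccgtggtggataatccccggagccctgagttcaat
Man2b1 peak 2: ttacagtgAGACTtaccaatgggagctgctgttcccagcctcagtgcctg
Galc peak 1: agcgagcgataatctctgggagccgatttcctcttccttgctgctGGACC
Gnptab: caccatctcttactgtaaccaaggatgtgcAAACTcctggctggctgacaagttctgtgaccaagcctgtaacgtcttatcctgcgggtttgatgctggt

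Each of these 5 sequences holds a single RRACH. The motif was searched on the transcribed strand only. It occurred in 13 of the 16 member peaks, against 63.3% of the 2452 placed peaks. Among peaks of 50 exonic bases it occurred in 8 of 9 member peaks and in 50.1% of all 939. The 3 member peaks without it were that of Fuca2, the 3′UTR peak of Galc and the second peak of Sgsh. The peak of Fuca2 and the 3′UTR peak of Galc had the largest changes after that of Naglu. A match is a description of the letters, and a window without one says nothing on methylation.

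MeRIP-seq reads a peak from the ratio of IP to input reads. In control cells the IP reads were fewer than the input reads in 13 of the 16 member peaks, and in 1414 of all 2643 peaks. After MA no member peak had fewer IP than input reads, and 69 of all peaks did. The summed reads of all peaks differ between the groups, so each ratio was divided by the ratio of these sums in the same condition. On this scale the median log2 ratio of the member peaks was -0.06 in control cells and 0.47 in MA-treated cells, against 0.05 and 0.13 over all peaks. A shift common to all peaks is removed by this scaling and cannot be seen. Whether such a shift comes from sequencing depth, the IP or methylation was not tested.

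The change of the scaled ratio from control to MA had a median of 0.41 (log2) over the 16 member peaks and of 0.05 over all peaks. A rule of size of 1.5-fold was used in place of a test. It was passed upwards by 7 of the 16 member peaks, on Naglu, Fuca2, Galc, Man2b1, Idua and Arsb, and by 29.1% of all peaks. No member peak passed it downwards, where the share of all peaks was 24.1%. The interval given with each change is a 95% interval from the number of reads alone, which cannot include differences between dishes. This interval lay above 0 for 5 member peaks (24.2% of all peaks), below 0 for 1 (21.4% of all peaks), and included 0 for 10. With at least 20 reads in every group, 3 of 10 member peaks passed 1.5-fold upwards, against 24.6% of all 1925 such peaks, and the median log2 change was 0.22 for the members and 0.03 for all.

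**Figure D3:**
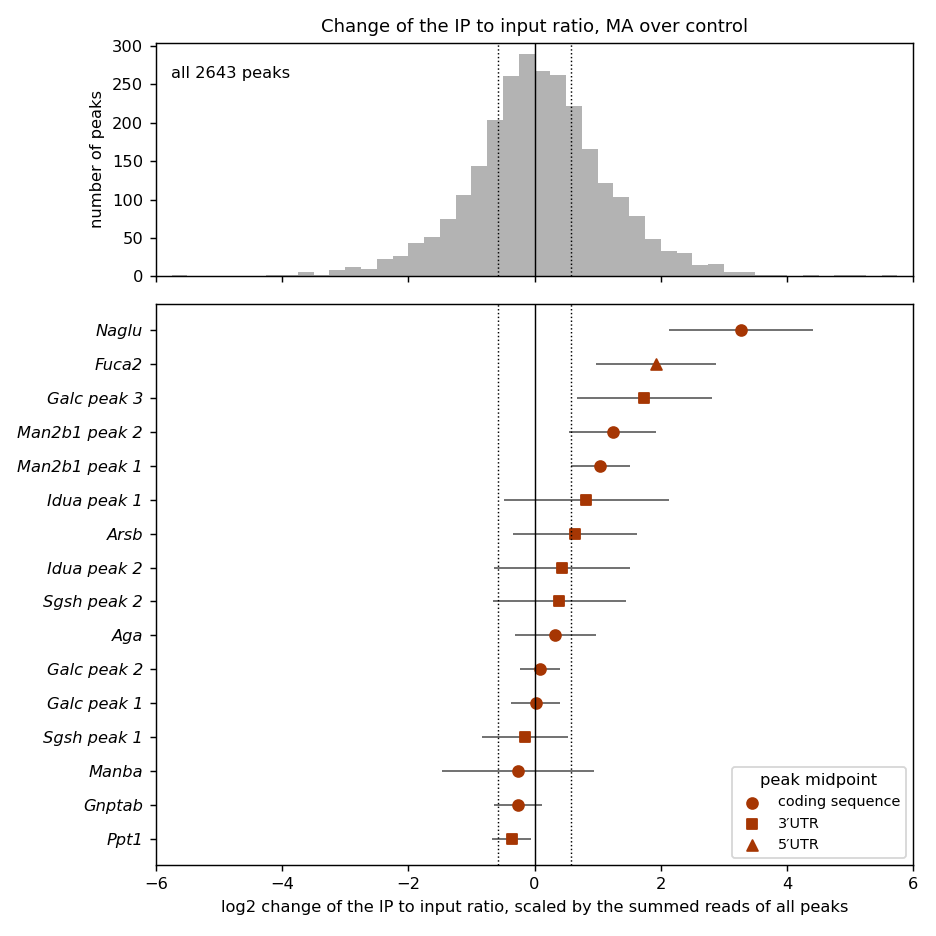
Log2 change of the scaled IP to input ratio from control to MA for all 2643 peaks (upper histogram) and for the 16 member peaks (lower points, by the place of the midpoint, with bars for the 95% counting interval); dotted lines mark 1.5-fold. The 5 uppermost peaks have intervals above 0, Ppt1 has one below 0, and the other 10 include 0.

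The largest change was that of Naglu, whose enzyme removes N-acetylglucosamine from heparan sulfate. Its peak held 42 reads in control input, 14 in control IP, 16 in MA input and 98 in MA IP. The IP reads thus made up 25.0% of the control reads (Clopper-Pearson 95% interval 14.4% to 38.4%) and 86.0% of the MA reads (interval 78.2% to 91.8%). Such shares are not scaled and include the shift common to all peaks, which the scaled ratio leaves out. The scaled ratio was 9.66 times that of control (counting interval 4.38 to 21.3), rank 12 of the 2643 peaks. Both parts of the ratio moved apart. The scaled IP reads were 5.19 times those of control (interval 2.97 to 9.09), while the scaled input reads were 0.512 times (interval 0.288 to 0.911).

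Fuca2, which encodes the secreted form of alpha-L-fucosidase, followed with its peak over the start codon. The reads were 45 in control input, 25 in control IP, 24 in MA input and 94 in MA IP. The IP share was 35.7% in control (interval 24.6% to 48.1%) and 79.7% after MA (interval 71.3% to 86.5%). The scaled ratio was 3.80 times that of control (interval 1.97 to 7.33). Here the difference lay mainly in the IP reads, at 2.79 times (interval 1.79 to 4.34), while the interval of the input reads included 1 (0.717 times, 0.437 to 1.18).

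Galc encodes galactosylceramidase, the enzyme that degrades galactolipids of myelin, and its 3 peaks differed among themselves. The 3′UTR peak (chr12:98203125-98203174) held 30 reads in control input, 18 in control IP, 22 in MA input and 82 in MA IP. Its scaled ratio was 3.34 times that of control (interval 1.59 to 7.01). The first coding peak held 204, 180, 202 and 327 reads in the same order of groups. It had a ratio of 1.01 times control (interval 0.775 to 1.32). The second coding peak, which joins exons 7 and 8 (chr12:98234304-98242647, of which 100 bases are exonic), held 296, 248, 287 and 463 reads and had a ratio of 1.06 times control (interval 0.849 to 1.33). The log2 change of the 3′UTR peak exceeded that of the first coding peak by 1.72 (interval 0.58 to 2.86) and that of the second by 1.65 (interval 0.53 to 2.77). The 3′UTR peak was low in control cells, and such peaks are listed only where MA is high, as described further on. These intervals do not include that selection, so the differences cannot be taken as a trait of the 3′UTR. The coding peaks are neighbours in exon 7, so fragments may overlap both and they are not independent. Their input reads were higher after MA on the scaled level, 1.33 times for the first (interval 1.10 to 1.62) and 1.30 times for the second (interval 1.11 to 1.53), and their IP reads were higher by a similar factor, 1.35 and 1.39 times.

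Man2b1 encodes lysosomal alpha-mannosidase, and both of its coding peaks passed 1.5-fold upwards. Peak 1 held 182 reads in control input, 116 in control IP, 108 in MA input and 258 in MA IP. Peak 2 held 87, 55, 45 and 123 reads. The scaled ratios were 2.06 times control for peak 1 (interval 1.49 to 2.85) and 2.36 times for peak 2 (interval 1.46 to 3.81). Their changes did not differ beyond counting error, since the difference of 0.20 (log2) had an interval of -0.64 to 1.03. The scaled IP reads were 1.65 and 1.66 times those of control, with intervals of 1.33 to 2.05 and 1.21 to 2.28. The scaled input reads were 0.798 and 0.695 times, with the upper bounds at 1.01 and 0.996.

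**Figure D4:**
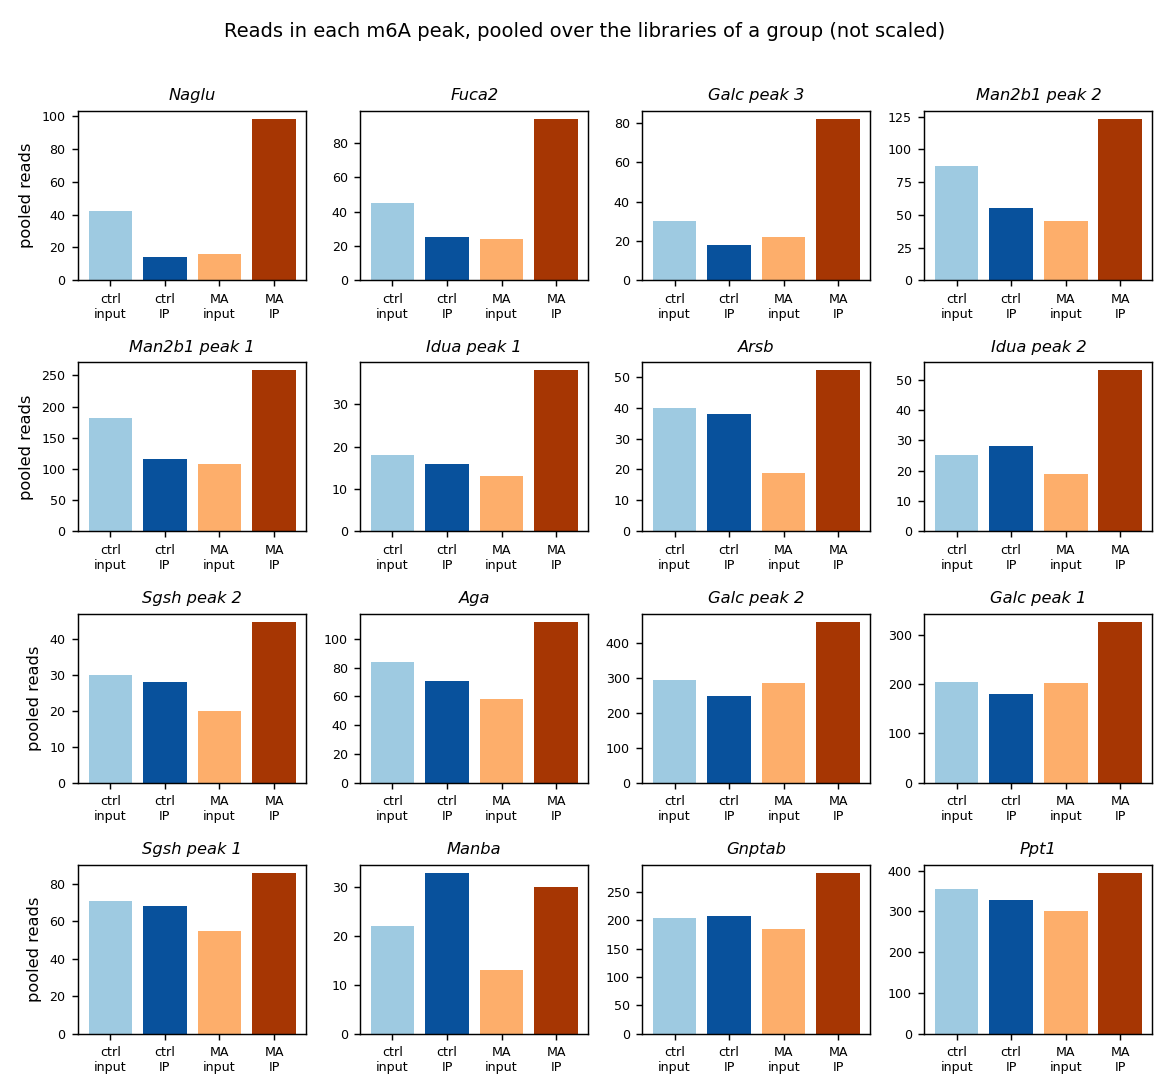
Reads in each of the 16 member peaks, pooled by the authors over the 3 libraries of a group and not scaled, with 1 panel per peak. Each panel has a bar for input and for IP in each condition, and the axes start at 0 and differ between panels. In the Naglu panel MA IP reaches 98 reads and control IP 14, while the Ppt1 panel runs from 302 to 395 reads in all groups.

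These peaks were also the lowest in control cells. Naglu lay at percentile 0.227 of all peaks by its control ratio, Fuca2 at 3.52, the 3′UTR peak of Galc at 5.96, and peaks 1 and 2 of Man2b1 at 8.02 and 7.76. The change is computed from the same control reads. All 2643 listed peaks had more IP than input reads with both conditions summed, with a lowest log2 ratio of 0.02, so a peak that was low in control is listed only where MA is high. Of the 212 peaks with a control ratio no higher than that of Man2b1 peak 1, all 212 passed 1.5-fold upwards, with a median log2 change of 1.89. The 5 member peaks among them had changes from 1.04 to 3.27. In MA-treated cells Naglu lay at percentile 98.6 of all peaks, Fuca2 at 92.8, Galc peak 3 at 91.9, and peaks 1 and 2 of Man2b1 at 73.2 and 80.8.

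Genes of heparan and dermatan sulfate breakdown besides Naglu gave changes that the number of reads does not resolve. The first 3′UTR peak of Idua (chr5:108684417-108684466) held 18 reads in control input, 16 in control IP, 13 in MA input and 38 in MA IP, and its ratio was 1.77 times control (interval 0.712 to 4.38). The second (chr5:108684492-108684641, of which 61 bases fall on the transcript) held 25, 28, 19 and 53 reads with a ratio of 1.36 times (interval 0.644 to 2.85). Arsb (chr13:93941978-93942052) held 40, 38, 19 and 52 reads, and its ratio was 1.56 times control (interval 0.791 to 3.09). The intervals of these 3 peaks all include 1. Sgsh, the heparan N-sulfatase, had a peak with 71, 68, 55 and 86 reads (chr11:119344814-119344863) and a ratio of 0.898 times control (interval 0.560 to 1.44). Its second peak, with 30, 28, 20 and 45 reads (chr11:119344689-119344763), had 1.31 times (interval 0.632 to 2.72). The Sgsh peaks overlap Card14 and the Arsb peak overlaps Gm26527, both on the opposite strand. The library kit keeps strand, but whether peak reads were counted by strand is not given in the sources used here.

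Ppt1 was the member with the lowest change, and the only one with an interval below 0 on the scaled level. Its 3′UTR peak (chr4:122858658-122858707) was the most deeply covered of the 16, with 355 reads in control input, 329 in control IP, 302 in MA input and 395 in MA IP. The scaled ratio was 0.779 times that of control (interval 0.630 to 0.962), whereas without any scaling the log2 change turned positive, at 0.50. Gnptab held 204, 207, 185 and 284 reads with a ratio of 0.834 times (interval 0.639 to 1.09). Aga (chr8:53516047-53517793, of which 50 bases are exonic) held 84, 71, 58 and 112 reads with a ratio of 1.25 times (interval 0.803 to 1.96). The coding peak of Manba (chr3:135554836-135563290, of which 175 bases are exonic) held 22, 33, 13 and 30 reads, with a ratio of 0.838 times control (interval 0.364 to 1.93). None of these 3 intervals excludes 1. Without scaling the log2 changes of Gnptab, Manba and the first Sgsh peak were positive as well, at 0.60, 0.60 and 0.70, beside a median of 0.90 over all peaks.

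Summed over their peaks, Galc and Man2b1 gave log2 changes of 0.16 (interval -0.08 to 0.40) and 1.11 (interval 0.72 to 1.49). Those of Idua and Sgsh were 0.60 (interval -0.23 to 1.44) and 0.02 (interval -0.56 to 0.59). Both peaks of Man2b1 belong to the 212 peaks described above, and its interval does not include that selection. The sum for Galc was carried by its coding peaks and lay below the value of the 3′UTR peak, which also belongs to the 212 peaks. Fragments that overlap both coding peaks of Galc may be counted in each, so its interval may be too narrow. The 16 member peaks together took 0.601% of all peak reads in control input and 0.552% in control IP. In MA-treated cells the shares were 0.646% in input and 0.706% in IP.

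Other genes of the lysosomal pathway were described from lists in the same way. Of 16 listed soluble hydrolases that are not members, only Plbd2 and Prcp had peaks, 4 in all, and 0 of them passed 1.5-fold upwards and 1 downwards, a Plbd2 peak at 0.507 times control (log2 change -0.98, interval -1.63 to -0.33). Of 8 genes for the sorting of lysosomal enzymes, 3 had 1 peak each, and all 3 passed 1.5-fold upwards. M6pr, the cation-dependent mannose 6-phosphate receptor, held 16 reads in control input, 9 in control IP, 6 in MA input and 39 in MA IP, and its ratio was 5.83 times control. Gga2, an adaptor for these receptors, had 33, 14, 11 and 65 reads and 7.26 times. The log2 intervals were 0.88 to 4.20 for M6pr and 1.59 to 4.13 for Gga2. Both of these peaks also had a lower control ratio than Man2b1 peak 1, so they belong to the 212 peaks described above. Scarb2, the receptor of glucocerebrosidase, had 32, 33, 8 and 27 reads and 1.73 times, with a log2 interval that includes 0, -0.52 to 2.10. Among the lysosomal proteases 1 of 3 peaks passed upwards and 0 downwards. It lies on Ctsb, and its log2 interval includes 0, -0.42 to 1.88. Among the lysosomal membrane proteins 3 of 3 peaks passed upwards, both peaks of Mcoln1 and the peak of Npc1. The Mcoln1 peaks were at 1.64 and 1.82 times control, with log2 intervals of 0.42 to 1.01 and 0.61 to 1.11. Npc1 was at 2.02 times (log2 interval 0.37 to 1.66). For all of these lists the shares of all peaks to set beside the counts are 29.1% upwards and 24.1% downwards, and each list holds only a few peaks.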

How the data were processed

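RNA of 12 HT22 libraries was used, in 4 groups of 3. For the expression table the authors used HISAT2 alignments to mm10 after fastp, then StringTie and DESeq2. For peaks they used exomePeak2 with a Poisson model and size factors from background regions, which differ from the scaling used here. The peak table is 1 list for both conditions. Tool versions are not given in the sources used here. The base mean is a normalised signal deposited by the authors as 1 value per gene. The counts of reads per peak were deposited by the authors as 1 value per group. Their labels give the condition and the kind of library, not a replicate. Whether each value is a sum over the 3 libraries is not given in the sources used here. The intervals take it as a plain count of reads. The remaining columns hold the authors' own comparisons (fold changes, standard errors, test statistics, p-values, and log2 IP to input ratios with their difference), and none was used, so no p-value is given. The number of columns of single libraries left out is 0.

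Ratios used the reads plus 0.5, scaled by the summed reads of all 2643 peaks. Intervals cover counting error only: 95% Clopper-Pearson for shares, and a normal interval of the log ratio for changes. The 68 peaks naming several genes were assigned to no gene. Peak starts were read as 0-based. Levels used the longest coding transcript of GENCODE M21. The method was also run on simulated Poisson reads with known changes. That simulation held no spread between replicates and no selection of peaks, so it does not bear on either. Scripts ran under Python 3.11.15 with scipy 1.17.1, pandas 2.3.3, numpy 2.4.6 and matplotlib 3.10.9. Members, lists and rules were chosen with earlier results of these data known. The rule for naming took each member with a peak, the highest and lowest member of each role, and members at a base mean under 10; the levels of the other members were added for completeness. The alternatives were another scaling, a read minimum, no added count, other folds and another length.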

Additional observations from a re-analysis of the deposited data

How the results depend on the processing

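No paired analysis was possible because the deposited values are pooled over the replicates, and for the same reason no replicate could be left out. The reads without scaling were added as an alternative after the data had been seen. Without scaling, 15 member peaks passed 1.5-fold upwards in place of 7, the median log2 change of the members was 1.27, the median log2 ratio in MA-treated cells was 1.21, and the median log2 change of all peaks was 0.90, with 64.0% of them past 1.5-fold upwards. The log2 changes below 0 on the scaled level all turned positive: Ppt1, the 1 peak with an interval below 0, to 0.50, and Gnptab, Manba and the first peak of Sgsh, with intervals that included 0, to 0.60, 0.60 and 0.70. With at least 20 reads in every group, 3 member peaks passed upwards, since 10 of 16 were left, and the median log2 change of the members was 0.22 in place of 0.41. At 1.2-fold 10 member peaks passed upwards, against 41.5% of all peaks, and 1 passed downwards in place of 0, against 36.4%. With all exons merged as the length, the median level was 342 base mean per kb in place of 562, against 264 in place of 386 for the coding genes, and 35 of the 41 members moved by at most 5 places in the order. Scaling by the median over peaks gave a median log2 change of 0.33 for the members and -0.04 for all peaks and left 6 member peaks past 1.5-fold; of all peaks 26.1% then passed upwards and 26.9% downwards. The number of members with a peak stayed at 11 when peaks naming several genes were counted.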

Other observations

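The Manba peak held 35 input reads over both conditions, or 200 per exonic kb, which is 69.5 times the base mean per kb of the gene. This lay at percentile 95.8 of the 2283 peaks on genes with a base mean of at least 10, whose median was 5.71. For the other member peaks the same quotient ran from 0.576 for Fuca2 to 19.2 for the first peak of Galc. The base mean and the peak reads of Manba thus give different pictures of its level. The cause was not tested.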
